A study of Mus musculus with 42 samples.

Results

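The enzymes that turn farnesyl diphosphate into squalene and squalene into cholesterol were followed in the liver through 9 genes: Fdft1, Sqle, Lss, Cyp51, Msmo1, Nsdhl, Hsd17b7, Sc5d and Dhcr7. They were chosen by name as steps of this pathway, out of 54446 genes in the count table, and all 9 were among the 15574 genes with enough counts to be tested. Their RNA was measured by strand-specific sequencing of polyadenylated RNA from whole liver of 42 female APOE*3-Leiden mice, 1 library per mouse. All of these mice carry the human APOE*3-Leiden transgene, which slows the clearance of lipoprotein remnants, so no group is wild type. A group of 10 stayed on chow. The 16 WTD mice ate a Western-type diet with 15% cocoa butter, 40.5% sucrose and 1% cholesterol by weight, to which 0.05% sodium cholate was added at week 22. In the 16 WTD+Atorvastatin mice the same diet also held atorvastatin, at 3.0 mg/kg/day and from week 5 at 4.5 mg/kg/day. Mice on WTD were 8 to 14 weeks old when the diet began and had 3 weeks of run-in on it, and all groups were killed at week 32. Chow mice are labelled AZ and both WTD groups Gen, and what these letters stand for is not given, so whatever they mark cannot be told apart from the diet.

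Hepatocytes make cholesterol from acetyl-CoA in 2 stretches. The mevalonate arm runs up to farnesyl diphosphate and is the stretch that statins block. The enzymes described here take over from there and work in the membrane of the endoplasmic reticulum. Most of their genes are known targets of SREBP2, a transcription factor that is held back by SCAP and INSIG proteins when sterols are plentiful and released when they run short. Statin treatment is known to raise these genes in liver, and dietary cholesterol is known to lower them.

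The 9 genes lie on 9 different chromosomes. On GRCm38, Fdft1 (ENSMUSG00000021273) spans chr14:63145150-63179578 on the minus strand, Sqle (ENSMUSG00000022351) chr15:59315077-59331192 on the plus strand, and Lss (ENSMUSG00000033105) chr10:76531588-76557138 on the plus strand. Cyp51 (ENSMUSG00000001467) spans chr5:4081145-4104746, Msmo1 (ENSMUSG00000031604) chr8:64718139-64733792 and Hsd17b7 (ENSMUSG00000026675) chr1:169949535-169969241, all on the minus strand. Nsdhl (ENSMUSG00000031349) is at chrX:72918557-72958514 on the plus strand, Sc5d (ENSMUSG00000032018) at chr9:42251595-42264256 on the minus strand, and Dhcr7 (ENSMUSG00000058454) at chr7:143823145-143848410 on the plus strand. In 3 of them, annotated exons overlap a gene on the opposite strand. Fdft1 shares 774 of its 4227 exonic bases with Ctsb, a lysosomal protease, Lss shares 381 of 10787 with the antisense RNA 4930483K19Rik, and Cyp51 shares 166 of 4415 with Akap9. Whether the counting used the strand is not given in the sources used here, so reads in these stretches cannot be assigned with certainty.

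Since these genes moved together, their promoters are shown as background. RefSeq promoter windows (GRCm38.p6) were at hand for 7 of the 9 genes, not for Fdft1 and Sqle, with 3 windows for Dhcr7 and 1 for each of the others. The 250 bases before each start were searched on both strands for the letters TCACNCCAC, written after the sterol regulatory element, for CCAAT, the letters NF-Y binds, and for GGGCGG, those Sp1 binds. In these windows no CCAAT match overlapped a GGGCGG match. CCAAT was present in 7 of the 9 member windows, at least 1 for each gene, and in 33.8% of all 32851 windows of the same length. GGGCGG was present in 8 of the 9, again at least 1 for each gene, and in 32.7% of all windows. For Dhcr7, CCAAT was in only 1 of its 3 windows, and all 250 bases of that window lie in annotated exons of the gene. In the Msmo1 window 214 of the 250 bases lie in annotated exons of the gene, and these hold all its CCAAT and GGGCGG matches. The only CCAAT of Cyp51 also lies in an annotated exon of its gene. The third pattern, TCACNCCAC, was in 0 of the 9 member windows and in 1.05% of all windows, which says only that these letters are not in these stretches. The windows of Nsdhl and Sc5d hold no annotated exon of their gene and are printed whole, and that of Hsd17b7 is printed up to its annotated exon. They are Nsdhl at chrX:72918271-72918520 (plus strand), Sc5d at chr9:42264301-42264550 (minus strand) and Hsd17b7 at chr1:169969242-169969455 (minus strand), 5′ to 3′ toward the gene, with both motifs in capitals in either orientation.
Nsdhl: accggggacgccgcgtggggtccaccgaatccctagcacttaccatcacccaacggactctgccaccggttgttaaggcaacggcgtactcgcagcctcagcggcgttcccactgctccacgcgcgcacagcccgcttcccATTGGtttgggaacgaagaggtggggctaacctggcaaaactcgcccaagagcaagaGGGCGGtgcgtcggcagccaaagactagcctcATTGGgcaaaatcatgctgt
Sc5d: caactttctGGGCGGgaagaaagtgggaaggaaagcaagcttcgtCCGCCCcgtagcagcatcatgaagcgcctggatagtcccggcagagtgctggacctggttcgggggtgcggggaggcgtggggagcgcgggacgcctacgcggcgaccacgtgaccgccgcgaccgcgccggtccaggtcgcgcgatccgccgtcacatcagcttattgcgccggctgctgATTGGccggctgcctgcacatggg
Hsd17b7: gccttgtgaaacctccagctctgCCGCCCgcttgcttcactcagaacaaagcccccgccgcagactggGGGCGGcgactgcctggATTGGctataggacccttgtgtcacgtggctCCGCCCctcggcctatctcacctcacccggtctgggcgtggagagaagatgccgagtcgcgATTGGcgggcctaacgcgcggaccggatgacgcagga

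The read pairs counted on genes were between 15661381 and 36224054 per mouse. The least-covered value among all members and mice still rested on 77 counts. Genes with a group mean of 1 to 2 CPM (counts scaled to the same library size by edgeR's TMM method) had no count in 0% to 59.0% of cases per library, and this share was over 20% in 8 libraries, 3 from Chow, 4 from WTD and 1 from WTD+Atorvastatin mice. Fold changes, calls, the Sqle to Fdft1 ratio, the spread between mice, the pairs of genes and the ranking of alike genes are also given without these 8, and levels, overlaps and the other gene lists are not. Defining genes of hepatocytes were abundant in every library, with a summed level of 9 of them at 120237 to 174295 CPM on chow, 58617 to 114081 CPM on WTD and 68505 to 138453 CPM with atorvastatin. All 9 were lower on WTD than on chow at an adjusted p under 0.01, against 16.0% of all tested genes. With atorvastatin 5 of the 9 were higher than on WTD, against 4.84% of all tested genes. The summed level of 10 macrophage and Kupffer cell markers was 396 to 635 CPM on chow, 2430 to 4355 CPM on WTD and 1751 to 3072 CPM with atorvastatin. In whole liver, fewer hepatocytes and less of an RNA per hepatocyte cannot be told apart.

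On chow the pathway was expressed at very different levels from step to step. Compared per length, as CPM per kilobase of the principal transcript, Sc5d was highest at 179 ± 26.9 (SD, n = 10) and Hsd17b7 lowest at 18.1 ± 4.65. Msmo1 followed Sc5d at 148 ± 33.1, and Sc5d was above it in 9 of 10 mice. Cyp51 at 92.5 ± 14.5 and Fdft1 at 90.1 ± 16.1 were not separated, with Cyp51 higher in 6 of 10 mice. Next came Nsdhl at 59.7 ± 9.42, Sqle at 51.3 ± 11.4 and Dhcr7 at 46.4 ± 7.85, and the order of Sqle and Dhcr7 held in only 6 of 10 mice. Lss was at 29.0 ± 6.10. The order depends on the length used, and with the union of all annotated exons Msmo1 came after Cyp51 and Fdft1, and Lss was last, while on WTD Sqle was then last.

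On WTD this order was different. Sc5d, the sterol desaturase near the end of the pathway, stayed on top at 83.0 ± 19.4 CPM per kilobase (n = 16) and was above the next gene in 16 of 16 mice. Next came Fdft1 and Msmo1 at 16.8 ± 3.67 and 16.4 ± 4.64, with Fdft1 higher in 10 of 16 mice. Dhcr7, below Nsdhl and Sqle on chow, was above both at 14.1 ± 3.64. Sqle, above Lss on chow, was below it at 4.86 ± 2.24, in 12 of 16 mice. Hsd17b7 was last at 3.80 ± 1.45, below Sqle in 10 of 16 mice. Per union of exons these changes held in fewer WTD mice, with Dhcr7 above Nsdhl in 6 of 16 and Lss above Sqle in 9 of 16. With atorvastatin the order per principal transcript was that of WTD except that Sqle, at 14.9 ± 6.32, was above Lss at 12.3 ± 4.01 in 13 of 16 mice. Per union of exons, Nsdhl was also above Dhcr7 in that group, in 13 of 16 mice, and Sqle was above both Hsd17b7, in 9 of 16, and Lss.

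**Figure D1:**
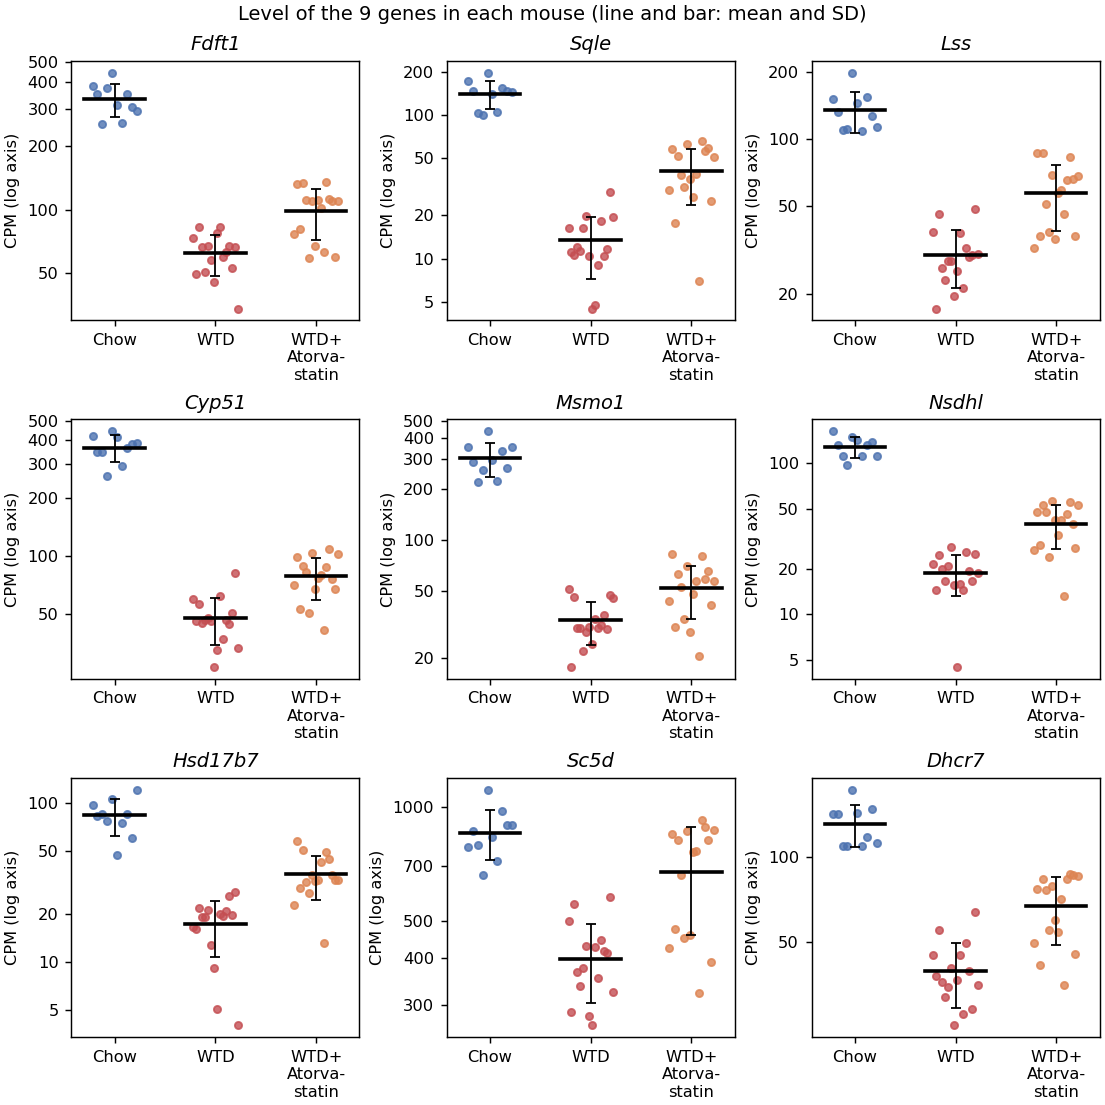
Level of each of the 9 genes in CPM (logarithmic axes that differ between panels) in every mouse, with 1 point per mouse, a line at the group mean and a bar of 1 SD. In all 9 panels the 16 WTD mice lie below all 10 Chow mice, and the 16 WTD+Atorvastatin mice lie between the groups or overlap with them.

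The comparison of WTD with Chow asks what the cholesterol-rich diet did to these enzymes. All 9 genes were lower on WTD than on chow, by 2.15-fold for Sc5d to 10.5-fold for Sqle, and all 9 passed the test. For comparison, 16.0% of all tested genes were lower on WTD at this threshold, a Benjamini-Hochberg adjusted p under 0.01 in the quasi-likelihood test of edgeR. In all 9 every WTD mouse was below every Chow mouse, as was the case for 2.43% of all tested genes. The median log2 fold change of the 9 was -2.42, against 0.03 over all tested genes. Differences in size between genes were tested only for Sqle and Fdft1.

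Fdft1 encodes squalene synthase, which joins a pair of farnesyl diphosphates and commits them to sterols. Its level was 253 CPM in the lowest, 332 in the median and 444 in the highest Chow mouse, and 34.0, 64.5 and 83.1 CPM in the WTD mice. The log2 fold change was -2.42 (SE 0.13, adjusted p = 1.0e-19). Sqle, squalene epoxidase, is known as a rate-limiting step of the pathway. It fell most of the 9, from 100 CPM (lowest), 146 (median) and 197 (highest) on chow to 4.48, 11.5 and 28.9 CPM on WTD. Its log2 fold change was -3.40 (SE 0.26, adjusted p = 3.0e-14). Lss, which folds the epoxide into lanosterol, was at 109, 130 and 199 CPM on chow and at 17.2, 28.8 and 48.5 CPM on WTD, with a log2 fold change of -2.17 (SE 0.16, adjusted p = 3.9e-15).

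The next genes strip methyl groups from lanosterol. Cyp51, the cytochrome P450 that removes the methyl group from the ring junction, had 260, 370 and 442 CPM in the lowest, median and highest Chow mouse. On WTD it had 26.6, 46.3 and 81.3 CPM, and the log2 fold change was -2.93 (SE 0.14, adjusted p = 4.8e-22). Msmo1, the oxidase that begins the removal of the remaining methyl pair, fell nearly as much as Sqle. It went from 220 CPM (lowest), 290 (median) and 437 (highest) to 17.8, 30.4 and 50.9 CPM, a log2 fold change of -3.18 (SE 0.18, adjusted p = 1.3e-18). Nsdhl, the decarboxylating dehydrogenase of the same complex, ranged from 98.0 to 163 CPM on chow with a median of 133. It ranged from 4.48 to 28.1 CPM on WTD with a median of 19.1, and its log2 fold change was -2.77 (SE 0.18, adjusted p = 2.5e-16). Hsd17b7, the reductase that closes each round, was at 47.1, 84.0 and 121 CPM on chow and 4.03, 19.3 and 27.5 CPM on WTD, with a log2 fold change of -2.25 (SE 0.21, adjusted p = 8.1e-12).

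The last enzymes set the double bonds of the sterol ring, and they fell least. Sc5d, which introduces one, had 662 CPM in the lowest, 850 in the median and 1114 in the highest Chow mouse, and 265, 393 and 578 CPM in the WTD mice. The log2 fold change was -1.11 (SE 0.15, adjusted p = 2.1e-08). Dhcr7, which reduces the final double bond on the route through dehydrocholesterol, had 109, 129 and 173 CPM on chow and 25.5, 37.4 and 63.9 CPM on WTD. Its log2 fold change was -1.72 (SE 0.13, adjusted p = 9.4e-15). With library sizes taken from the hepatocyte markers alone, a scale on which the median log2 fold change of all tested genes was 0.92, all 9 stayed lower on WTD and 8 were called. Sc5d was then at -0.23 (adjusted p = 0.048). Without the 8 libraries that missed weak genes, all 9 were called, with log2 fold changes from -3.39 for Sqle to -1.09 for Sc5d.

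Single mice stood out in a few of these genes. Mouse AZ#9 had the highest level of 7 of the 9 in Chow, and Gen#4 the highest of 6 of the 9 in WTD. The lowest WTD values of Sqle and Nsdhl, both 86 counts or 4.48 CPM, were in Gen#11, and the lowest of Hsd17b7, 77 counts or 4.03 CPM, was in Gen#13. These libraries had 40.7% and 46.2% of weakly expressed genes without a count. Gen#13 was not low in Sqle, with 19.5 CPM, and Gen#11 was not low in Fdft1, with 77.2 CPM. The SD between mice on the log2 scale was larger on WTD than on chow for 9 of the 9 genes, at 0.21 to 0.39 on chow and 0.33 to 0.79 on WTD. Without the 8 libraries it was larger on WTD for 8 of the 9, at 0.20 to 0.34 on chow and 0.24 to 0.50 on WTD, and was 0.42 for Hsd17b7 and 0.31 for Nsdhl on WTD. This difference in spread was not tested.

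The comparison of WTD+Atorvastatin with WTD asks how the same enzymes respond to a block upstream of them while the diet goes on. All 9 were higher with atorvastatin, by 1.56-fold for Msmo1 to 3.06-fold for Sqle, and all 9 passed the test, against 4.84% of all tested genes that were higher at this threshold. Treated and untreated mice overlapped in every one of the 9, and only 0.00642% of all tested genes had no overlap with treated mice higher. The median log2 fold change of the 9 was 0.76. Taken on the log2 scale, the rise made up between 20.1% (Msmo1) and 68.6% (Sc5d) of the fall on WTD. These shares depend on the scale, and with library sizes from the hepatocyte markers, described below, they were 3.87% for Msmo1, 7.99% for Fdft1 and 92.4% for Sc5d. The share of Sc5d is then one of 2 small changes that both did not pass (-0.23, adjusted p = 0.048, and 0.22, adjusted p = 0.0515). With hepatocyte markers other than Alb it was 176%.

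Sqle rose most. It had 6.96 CPM in the lowest, 38.5 in the median and 65.7 in the highest treated mouse, and 12 of 16 were above the highest WTD mouse. The log2 fold change was 1.61 (SE 0.23, adjusted p = 1.6e-05). Nsdhl had 13.3, 42.1 and 56.5 CPM in treated mice, with 12 of 16 above all WTD mice and a log2 fold change of 1.08 (SE 0.17, adjusted p = 2.7e-05). Hsd17b7 was next at 13.1, 32.9 and 57.4 CPM, with 13 of 16 above all WTD mice and a log2 fold change of 1.02 (SE 0.19, adjusted p = 0.000242).

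Lss reached 32.4, 57.9 and 86.5 CPM in the lowest, median and highest treated mouse, a log2 fold change of 0.93 (SE 0.14, adjusted p = 2.8e-05), and all 16 were above the WTD median. Sc5d ranged from 323 to 925 CPM with a median of 765, and its log2 fold change was 0.76 (SE 0.13, adjusted p = 8.0e-05). Dhcr7 ranged from 35.3 to 86.9 CPM with a median of 73.8, with a log2 fold change of 0.75 (SE 0.12, adjusted p = 3.8e-05). The 3 smallest rises were those of Cyp51, Fdft1 and Msmo1. Cyp51 was at 41.3, 78.3 and 108 CPM, and only 7 of 16 treated mice were above all WTD mice (log2 fold change 0.72, SE 0.12, adjusted p = 6.2e-05). Fdft1 was at 59.0, 110 and 136 CPM, with a log2 fold change of 0.66 (SE 0.12, adjusted p = 0.000132). Msmo1 was at 20.6, 54.9 and 82.0 CPM, with a log2 fold change of 0.64 (SE 0.16, adjusted p = 0.00375).

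This result depends on what the counts are set against. Relative to the hepatocyte markers, of which 5 of 9 themselves rose with atorvastatin, 3 of the 9 genes were called, and the median of all genes moved to -0.47. The called genes were Sqle, Lss and Nsdhl, and Msmo1 was then at 0.09 (adjusted p = 0.55). The 9 genes kept their direction on that scale. Without Alb, which makes up much of that sum, 7 of the 9 were called, and Fdft1 (0.37, adjusted p = 0.0102) and Msmo1 (0.33, adjusted p = 0.092) were not. Without the 8 libraries that missed weak genes, 8 were called, and Msmo1 was at 0.54 (adjusted p = 0.030).

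**Figure D2:**
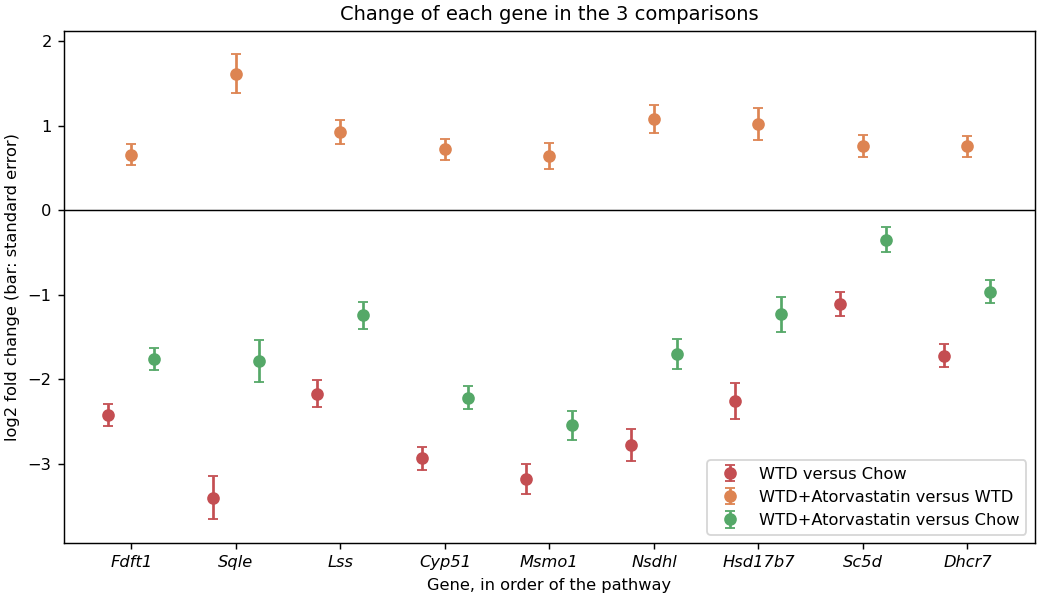
The log2 fold change of each gene (vertical axis, with a bar of 1 standard error) in the 3 comparisons, with the genes in the order of the pathway. Changes on WTD run from -3.40 for Sqle to -1.11 for Sc5d, those with atorvastatin against WTD from 0.64 for Msmo1 to 1.61 for Sqle, and 8 of the 9 remaining differences from chow passed the test.

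Treated mice were then compared with Chow, with which the WTD comparison shares its mice. With atorvastatin 9 of the 9 genes were still lower than on chow (Sc5d not under every scaling) and 8 passed the test, against 10.7% of all tested genes that were lower at this threshold. Msmo1 was the lowest relative to chow, at 17.2% of its Chow mean (log2 fold change -2.54, SE 0.17, adjusted p = 2.2e-15), followed by Cyp51 at 21.6% (-2.21, SE 0.14, adjusted p = 1.3e-17). Sqle, at 9.48% of its Chow mean on WTD, was at 29.0% with atorvastatin, close to Fdft1 at 29.5% and Nsdhl at 30.8%. Lss was at 42.3%, Hsd17b7 at 42.6% and Dhcr7 at 51.3%. Sc5d was the one gene that did not pass, at 78.6% of its Chow mean (log2 fold change -0.35, SE 0.15, adjusted p = 0.063), and relative to hepatocyte markers other than Alb its sign turned (0.19, adjusted p = 0.19). No treated mouse overlapped with a Chow mouse in 7 of the 9 genes, and the others were Hsd17b7 and Sc5d. Such a gap was found in 1.50% of all tested genes.

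Since each mouse gave both genes, the balance of the 2 opening enzymes was tested as the log2 ratio of Sqle to Fdft1. It was -1.25 ± 0.25 on chow (SD, n = 10), -2.32 ± 0.88 on WTD (n = 16) and -1.38 ± 0.62 with atorvastatin (n = 16). The ratio was lower on WTD than on chow by a difference of -1.07 (two-sided permutation p = 0.00067, adjusted over 3 comparisons 0.0018), and 15 of 16 WTD mice were below the Chow median. With atorvastatin it was higher than on WTD by 0.94 (permutation p = 0.0012, adjusted 0.0018), and 14 of 16 treated mice were above the WTD median. Treated mice differed from Chow by -0.13 (permutation p = 0.57, adjusted 0.57). The spread on WTD was wide, from -4.09 to -0.80, and both ends were libraries that missed weak genes. The highest ratio was that of Gen#13 and the lowest were those of Gen#11 and Gen#21, whose Sqle levels of 4.48 and 4.76 CPM stood beside Fdft1 levels of 77.2 and 82.4 CPM. Without the 8 libraries the ratio was -1.16 ± 0.10 on chow (n = 7), -2.17 ± 0.50 on WTD (n = 12, from -2.97 to -1.21) and -1.39 ± 0.64 with atorvastatin (n = 15). It was then lower on WTD than on chow by a difference of -1.005 (exact permutation p = 0.00026, adjusted 0.00077), and higher with atorvastatin than on WTD by 0.77 (permutation p = 0.0025, adjusted 0.0037).

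Other ratios to Fdft1 were not tested and are given as levels. Sc5d to Fdft1 was at 1.37 ± 0.26 (log2, SD) on chow and 2.67 ± 0.34 on WTD, and the highest Chow value, 1.65, was below the lowest WTD value, 1.78. It was 2.75 ± 0.19 with atorvastatin, with the narrowest spread of the 8 ratios in that group. Dhcr7 to Fdft1 went from -1.35 ± 0.22 on chow to -0.65 ± 0.34 on WTD and -0.55 ± 0.27 with atorvastatin. Msmo1 to Fdft1 moved the other way, from -0.15 ± 0.21 to -0.91 ± 0.50 and -0.95 ± 0.29. The treated means were nearer to those on WTD than to those on chow for Sc5d, Dhcr7, Msmo1, Lss, Cyp51 and Hsd17b7. Nearer does not mean equal. Lss to Fdft1 was at -1.31 ± 0.19 on chow, -1.07 ± 0.38 on WTD and -0.80 ± 0.25 with atorvastatin. Hsd17b7 to Fdft1 was at -2.02 ± 0.41, -1.94 ± 0.69 and -1.48 ± 0.35, so both treated means lay above those of the other groups. The treated means were nearer to those on chow for Sqle and Nsdhl. Nsdhl to Fdft1 was at -1.36 ± 0.25 on chow, -1.77 ± 0.71 on WTD and -1.33 ± 0.36 with atorvastatin.
Beside Fdft1 itself, its overlapping neighbour Ctsb was at 800 ± 68.0 CPM on chow, 1764 ± 156 on WTD and 1450 ± 131 with atorvastatin. Ctsb was higher on WTD and lower with atorvastatin, opposite to Fdft1, and the part of shared reads was not tested.

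**Figure D3:**
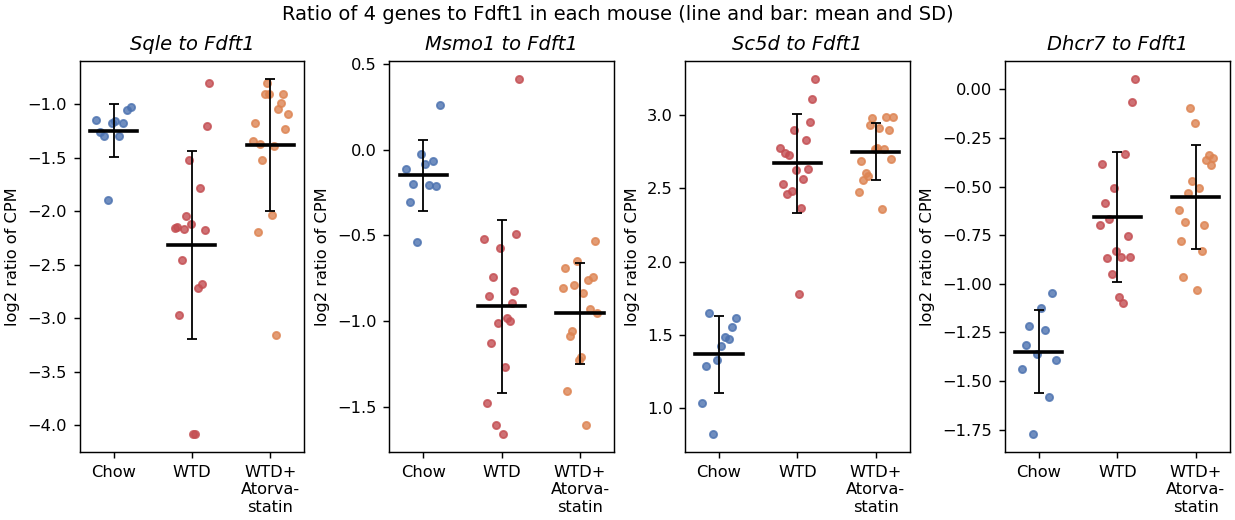
Ratio of Sqle, Msmo1, Sc5d and Dhcr7 to Fdft1 in every mouse, as a difference of log2 CPM, with a line at the mean and a bar of 1 SD. Sqle to Fdft1 fell on WTD to a mean of -2.32 and was at -1.38 with atorvastatin, near the Chow mean of -1.25, while Sc5d to Fdft1 was at 2.67 on WTD and 2.75 with atorvastatin.

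The treated mice were not alike. Their summed level of the 9 genes ranged from 563 to 1539 CPM, with no mouse between 829 and 1154 CPM, so that 6 mice lay below this gap and 10 above it. Summed levels on WTD were between 464 and 968 CPM, and those on chow between 2006 and 3261 CPM. The 6 mice, Gen#22, Gen#23, Gen#24, Gen#25, Gen#28 and Gen#36, were below all the other 10 in 5 single genes: Fdft1, Lss, Cyp51, Msmo1 and Sc5d. For Sc5d these values were 323 to 477 CPM against 663 to 925 CPM. Sc5d, with a treated mean of 672 CPM, is the largest part of the sum, so its own separation partly follows from that sum. In the mean log2 CPM, where each gene counts alike, the 6 were at 5.00 to 5.83 and the 10 at 6.08 to 6.64. This measure is made from the same 9 genes, so it is no separate support for the gap. By it the widest gap was elsewhere, between Gen#28 at 5.00 and the next mouse, Gen#36 at 5.60. In Sqle the ranges overlapped, at 6.96 to 35.9 against 27.0 to 65.7 CPM, as they did in Nsdhl, Hsd17b7 and Dhcr7. In Sqle, 3 of the 6 were above every WTD mouse, whereas in Fdft1, Lss, Cyp51, Msmo1, Sc5d and Dhcr7 all 6 were within the WTD range.
Other values moved with this gap. The summed hepatocyte markers were 68505 to 94959 CPM in the 6 mice and 112503 to 138453 CPM in the 10, while the macrophage markers overlapped, at 2077 to 3072 against 1751 to 2469 CPM. Depth and missed weak genes did not separate them, with 16779355 to 31679397 against 15908421 to 34464242 counts and 0% to 12.9% against 0% to 20.8% of weak genes at 0. Since these mice were told apart by the level itself, no test was made between them, and the part of the hepatocyte share was not tested.

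**Figure D4:**
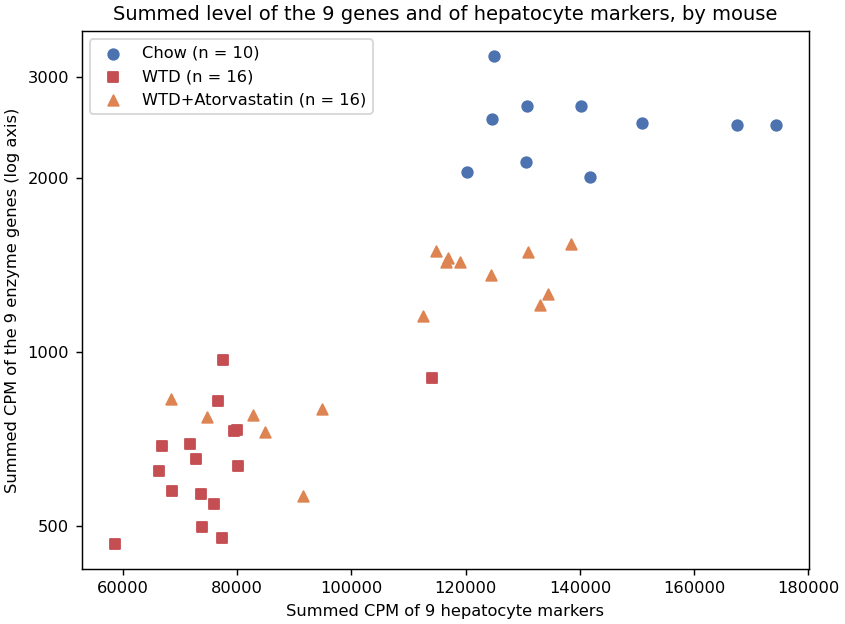
Summed level of the 9 genes (vertical, logarithmic axis, CPM) against the summed level of 9 hepatocyte markers (horizontal axis, CPM), with 1 point per mouse. The treated mice include 6 with sums up to 829 CPM, among the WTD mice, and 10 with sums from 1154 CPM, with hepatocyte markers at 112503 CPM or more. Sc5d is the largest part of the sum.

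How far the 9 genes followed each other from mouse to mouse was examined within groups, over the 36 pairs of genes in each of the 3 groups, with p values adjusted over all 108. On chow (n = 10) Pearson's r of log2 CPM had a median of 0.71 and ranged from -0.11 to 0.89, and 19 pairs passed at an adjusted p under 0.05. The closest pair was Sqle with Msmo1, with r = 0.89 (permutation p = 0.00053, adjusted 0.0015), Spearman's rho = 0.83 (permutation p = 0.0045, adjusted 0.011) and r = 0.90 without the 2 mice farthest from the Sqle median. Over all 10 mice Hsd17b7 passed in 0 of its 8 pairs, with r from -0.11 with Dhcr7 to 0.50 with Msmo1. Without the 2 farthest mice, 5 of the 36 pairs on chow passed, with n down from 10 to 8. The 19 pairs had a median r of 0.80 over all 10 mice and of 0.73 over the 8. Without the libraries that missed weak genes (n = 7), 7 pairs passed and the median r of all 36 was 0.74. Hsd17b7 with Msmo1 was then at r = 0.76 (permutation p = 0.048, adjusted 0.07) and rho = 0.86 (permutation p = 0.024, adjusted 0.049). That pair passed by rho only, and Hsd17b7 with Dhcr7 was at r = -0.04.

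On WTD (n = 16) the median r was 0.49, with 13 pairs that passed and a range from -0.36 to 0.87. Lss and Sc5d were closest, with r = 0.87 (permutation p = 3.0e-05, adjusted 0.00023), rho = 0.85 (permutation p = 5.0e-05, adjusted 0.00081) and r = 0.82 without the 2 mice farthest from the Lss median. Over all 16 mice Sc5d passed in 6 of its 8 pairs, the most of the 9. Over the 12 mice described below Dhcr7 passed in more, all but that with Hsd17b7 (r = 0.54, permutation p = 0.067, adjusted 0.085). Sqle passed in 1 pair, with Nsdhl, at r = 0.75 (permutation p = 0.00017, adjusted 0.0008), rho = 0.77 (permutation p = 0.00086, adjusted 0.0035) and r = 0.62 without 2 mice. Fdft1 and Sqle, the neighbours in the pathway, had r = -0.36 on WTD (permutation p = 0.17, adjusted 0.21), rho = -0.29 (permutation p = 0.28, adjusted 0.32) and r = -0.33 without 2 mice. Without the 4 WTD libraries that missed weak genes (n = 12) the sign turned, with r = 0.21 (permutation p = 0.52, adjusted 0.54), rho = 0.16 (permutation p = 0.62, adjusted 0.65) and r = 0.33 without 2 mice. Over these 12 mice 20 of the 36 pairs passed, with a median r of 0.66 and a range from 0.18 to 0.97. Beside Nsdhl, Sqle then also passed with Cyp51 (r = 0.66, permutation p = 0.021, adjusted 0.037) and Dhcr7 (r = 0.66, permutation p = 0.019, adjusted 0.035). By rho these pairs did not pass, at 0.62 for both (permutation, adjusted p = 0.071 and 0.068). On chow the pair of Fdft1 and Sqle had r = 0.67 (permutation p = 0.037, adjusted 0.056), rho = 0.61 (permutation p = 0.067, adjusted 0.091) and r = 0.34 without 2 mice. Without the Chow libraries that missed weak genes (n = 7), its r was 0.94 (permutation p = 0.0018, adjusted 0.0049). Its rho was then 0.96 (permutation p = 0.0028, adjusted 0.0081), and r was 0.82 without 2 mice. The difference between the groups was not tested. No correlation over treated mice is given, because the gap in their summed level described above would weigh in it.

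**Figure D5:**
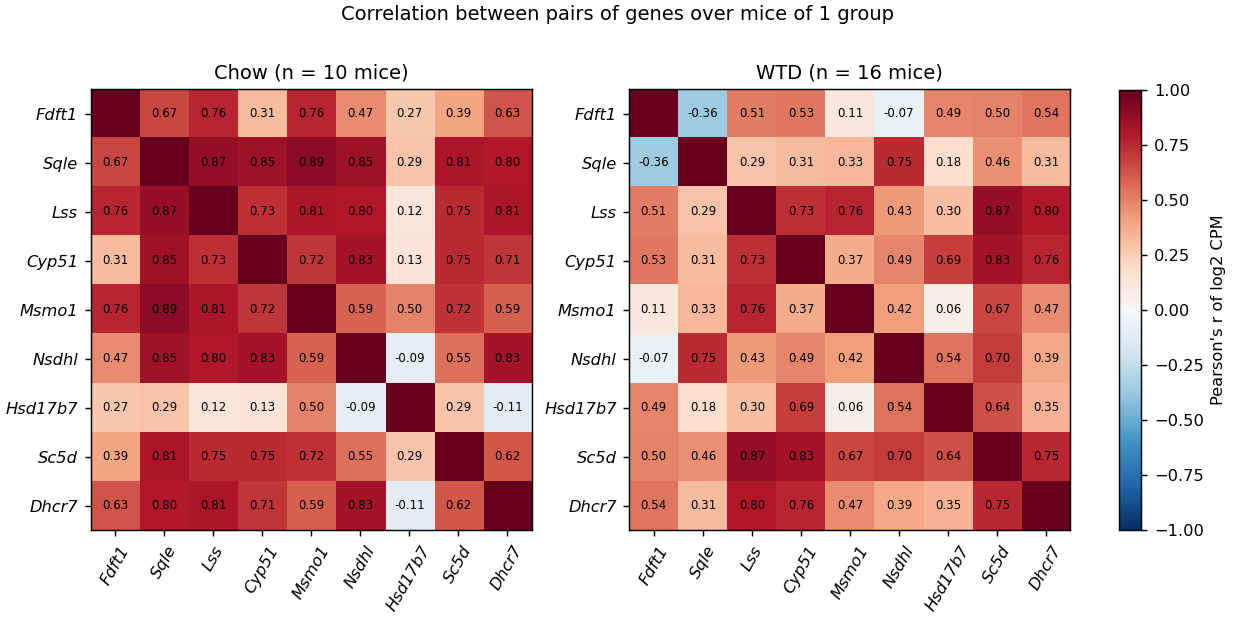
Pearson's r of log2 CPM for each pair of the 9 genes, over the 10 Chow mice (left) and the 16 WTD mice (right), on a colour scale from -1 (blue) to 1 (red). On chow the row of Hsd17b7 is pale, with r up to 0.50 (0.76 with Msmo1 over the 7 Chow mice left without libraries that missed weak genes). On WTD the row of Sqle is pale apart from Nsdhl, with r = -0.36 for Fdft1 (0.21 without 4 libraries that missed weak genes). Without those 4 libraries Sqle had r = 0.66 with both Cyp51 and Dhcr7.

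Genes outside the 9 that resembled them most were ranked by Pearson's r with their mean log2 CPM over all 42 mice after the group means were subtracted. This is a description over shared libraries, in which the gap between treated mice weighs in, with a median r of 0.05 over the 15565 other tested genes. Among the 10 closest were, in order, Acss2 (0.94), Acacb (0.91), Acsl5 (0.89), Hmgcs1 (0.88), Acly (0.88), Elovl5 (0.87), Acat2 (0.87), Idh1 (0.87) and Me1 (0.87). Of these, Hmgcs1 and Acat2 act in cholesterol synthesis before mevalonate, while Acly, Acss2 and Acacb supply acetyl-CoA and malonyl-CoA. On WTD alone (n = 16) these 9 had r between 0.81 and 0.94. On chow alone (n = 10) Hmgcs1 (0.84), Acat2 (0.79) and Acss2 (0.76) were closest, and Idh1 (0.16) and Acsl5 (0.21) were far lower. Without the 8 libraries (n = 34), 7 of the 10 were still among the 10 closest and all 10 had r between 0.86 and 0.96. Mean levels could still differ in pattern. Acacb, a carboxylase that makes malonyl-CoA, was at 136 CPM on both chow and WTD and at 290 CPM with atorvastatin, with a log2 fold change against WTD of 1.08 (SE 0.22, adjusted p = 0.000694).

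The other genes of sterol synthesis were taken from lists by function. In the mevalonate arm 9 of 9 genes were lower on WTD than on chow at an adjusted p under 0.01, with a median log2 fold change of -1.98. With atorvastatin 5 of the 9 were higher than on WTD, among them Hmgcs1 (0.76, SE 0.14), Acat2 (0.67, SE 0.13), Pmvk (0.70, SE 0.17) and Idi1 (1.08, SE 0.24). Mvd (1.06, adjusted p = 0.014), Fdps (1.11, adjusted p = 0.12), Mvk (0.18, adjusted p = 0.40) and Ggps1 (0.12, adjusted p = 0.63) did not pass. Fdps counts were few, at 1.31 ± 1.00 CPM on WTD.

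Of 5 further enzymes and helpers after squalene, 5 were lower on WTD and 4 higher with atorvastatin, against 16.0% and 4.84% of all tested genes. Tm7sf2, a sterol reductase that acts right after Cyp51, had the largest changes, from 242 ± 41.5 CPM on chow to 38.7 ± 11.1 on WTD and 78.1 ± 29.7 with atorvastatin. Lbr, the nuclear membrane protein with the same reductase activity, was at -0.46 on WTD, SE 0.13, adjusted p = 0.0030, and did not pass with atorvastatin (0.32, adjusted p = 0.061). Ebp and Erg28, the isomerase and a scaffold of the demethylation complex, were at log2 fold changes of -1.44 and -1.39 on WTD and of 0.44 and 0.35 with atorvastatin, all past the test.

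The oxidative steps need electrons from other membrane proteins. Of 6 such donors and partners, 4 were lower on WTD (Por, Cyb5a, Cyb5b and Pgrmc1), against 16.0% of all tested genes. With atorvastatin 3 were higher (Cyb5b, Cyb5r3 and Pgrmc1), against 4.84% of all tested genes. Cyb5b, the cytochrome b5 of the outer mitochondrial membrane, changed by -0.85 (SE 0.10) and 0.50 (SE 0.09), and Cyb5a, the form in the endoplasmic reticulum, by -0.80 (SE 0.08) and 0.06 (adjusted p = 0.69).

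Among 7 genes of the SREBP machinery, Srebf2 (-0.88, SE 0.08), Scap (-1.05, SE 0.13) and Insig1 (-1.36, SE 0.24) were lower on WTD and higher with atorvastatin (0.33, 0.67 and 0.96). Srebf1, which serves fatty acid synthesis, was higher on WTD (0.99, SE 0.17), and Insig2, Mbtps1 and Mbtps2 passed in neither comparison. Of 8 genes of sterol uptake and transport, 4 were lower on WTD, among them Stard4 (-1.34, SE 0.15), which carries sterols between membranes, and 2 were higher. With atorvastatin 3 of the 8 were higher, among them Stard4 (0.81, SE 0.14), and Npc2 fell by 0.35 in log2. For both lists the shares over all tested genes were 16.0% lower and 17.5% higher on WTD, and 4.84% higher with atorvastatin.

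Of 8 genes of sterol export and esterification, 6 were higher on WTD, from Abca1 (1.03, SE 0.10) to Abcg1 (3.37, SE 0.19), against 17.5% of all tested genes that were higher at this threshold. The others, Soat2 (-0.27, adjusted p = 0.020) and Nr1h3 (-0.21, adjusted p = 0.024), did not pass on the diet. Soat2 was the 1 gene that passed with atorvastatin (0.39, SE 0.09). Abcg1 and Soat1 are also expressed by macrophages, whose markers rose on WTD as given above, and the part of these cells was not tested. Of 4 genes that control enzyme turnover, 3 were tested. March6, a ubiquitin ligase known to act on squalene epoxidase, was at -0.60 (SE 0.09) on WTD and 0.27 (adjusted p = 0.013) with atorvastatin.

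Liver sterol synthesis is known to follow the time of day, so the members were also set against a clock score, the log2 CPM of Dbp minus that of Arntl, in a fit with group and score. The slope passed for 0 of the 9 genes, against 1.41% of all tested genes, and 0 had an unadjusted p under 0.05 (lowest 0.084, adjusted 0.42). With so low a share over all genes, 0 of 9 does not set the members apart. How small a slope this fit could show was not examined. With the score in the fit, the members called in the 3 comparisons numbered 9, 9 and 8.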

How the data were processed

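Counts per gene, the deposited unit, were made by the authors from read pairs trimmed with Trimmomatic, aligned to GRCm38 with STAR and assigned by HTSeq 0.6.1p1 to GENCODE genes, without normalization. Ambiguous read pairs (5.95% on average) and those aligned to several places (4.68%) were left out by that counting. Symbols and positions came from a later GENCODE release, which held 54409 of the 54446 identifiers. Here edgeR 4.0.16 (R 4.3.3) fitted all 42 mice in 1 robust quasi-likelihood model of 3 groups, after filterByExpr (minimum count 10, total 15) and TMM scaling. P values of the 15574 tested genes were adjusted together by Benjamini and Hochberg and called under 0.01, the level the study used. No batch is given, so no covariate entered. Log2 CPM used a prior count of 2. Ratios and correlations were tested with 100000 two-sided permutations, and the values over 7 Chow mice with all permutations.

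The 9 genes, the other lists and the markers were chosen with earlier results of these data known. Named genes were the members, every list's genes and the 10 most alike genes, of which some are not reported here. Libraries are separate mice, numbered within groups in accession order. Alternatives were DESeq2 1.42.0, limma-voom 3.58.1, other scalings and filters, other thresholds and dropping mice one at a time. All results without 8 libraries and the fits with hepatocyte markers other than Alb and with the clock score were added after the data had been looked at. On simulated counts of WTD+Atorvastatin and WTD with 15302 genes, 130 of 192 genes changed by 1 in log2 were called, with 1 unchanged gene. Tables were handled with pandas 2.3.3 and numpy 2.4.6 under Python 3.11.15, and plots drawn with matplotlib 3.10.9. Protein levels, enzyme activity and sterol intermediates were not analysed here.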

Additional observations from a re-analysis of the deposited data

Results flagged for a closer look

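In 1 of the 9 genes a single Chow mouse lay far from the others. Lss was at 199 CPM in AZ#9, and the gap to the next mouse was, as a share of the group's whole range, over the 95% value of Dixon's test for 10 samples. Chance flags about 1 in 20 such groups. AZ#9 also had the highest level of 7 of the 9 genes in Chow. Groups of 16 were not examined in this way.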

How the results depend on the processing

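Over 14 alternatives to the fit, the threshold or the samples, 359 of the log2 fold changes of single members kept their direction and their side of the threshold, 18 kept their direction but no longer passed, and 1 turned. That 1 was Sc5d between treated and Chow mice, not called at the outset, at 0.19 (adjusted p = 0.19) with library sizes from hepatocyte markers other than Alb. The members called between WTD+Atorvastatin and WTD numbered 3 instead of 9 with library sizes from hepatocyte markers and also 3 when a log2 fold change of at least 1 was required, in the latter case because 6 of the rises were smaller. The causes of the former were not tested. Counts of 8 or 9 were given for this comparison by DESeq2, limma-voom, RLE, upper quartile, both filters, the fit without robust estimation, the fit of only 2 groups, an adjusted p under 0.05, the clock score and the fit without 8 libraries, and hepatocyte markers other than Alb gave 7. With 1 of the 42 mice left out at a time, the fit changed none of the 1134 single values in direction or call, and the highest adjusted p of a called rise with atorvastatin was then 0.00875, for Msmo1. Pairs of members correlated on chow numbered 5 instead of 19 without the 2 mice farthest from the median and 7 without the libraries that missed weak genes, and those on WTD 20 instead of 13 without those libraries. Why these counts moved was not tested. The Sqle to Fdft1 ratio kept its direction and its side of the threshold in all 3 comparisons with a prior count of 0.5, without each mouse and without the 8 libraries. No paired analysis was possible because the numbers in the labels name different mice, AZ on chow and Gen on WTD, and nothing ties a mouse of one group to a mouse of another.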
